A study of Mus musculus with 6 samples.

Results

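The genes described here encode the proteins of the cytosolic ribosome. They were taken by name: protein-coding genes whose mouse symbol was Rpl or Rps followed by a number and at most a letter or a trailing l, together with Rplp0, Rplp1, Rplp2 and Rpsa, with kinases and pseudogenes left out and with a mean of at least 1 FPKM (fragments scaled to the length of the transcript and to the size of the library) over the 6 samples. Of 28773 gene IDs in each table, 80 protein-coding genes had such a symbol and 78 reached the level, 31 for the small subunit and 47 for the large subunit. Rpl21 was the lowest gene inside the threshold at 1.54 FPKM, and Rpl3l and Rpl39l, the only genes outside it, were each at 0.00667 FPKM. Rpl6l, Rpl32l and Rps4l had a fitting symbol but were annotated as pseudogenes. Rpl10l was not analysed here.

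The transcripts were those of splenic CD8+ T cells of mice, collected at day 35. The MWA+PBS group (3 samples, replicates 1 to 3) had received microwave ablation of the tumor and injections of PBS. The MWA+2DG group (3 samples, replicates 4 to 6) had received the same ablation and injections of 2-deoxy-D-glucose (2DG), a glucose analog that blocks glycolysis. The study's methods describe repeated injections that ended before day 35, so the cells were collected after the last of them. The ablation was therefore shared by both groups, and no sample without it was analysed here. The labels give neither the strain, age or tumor line nor whether a sample came from a single mouse or a pool. The study's methods describe female mice throughout, a 4T1 mammary tumor in BALB/c mice as the leading model, and isolation of the cells with a CD8+ T cell kit rather than by a flow cytometry gate.

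A ribosome holds one copy of nearly every ribosomal protein, so the proteins are needed in matched amounts, and surplus protein is degraded. The mRNAs begin with a C followed by a run of pyrimidines, the 5′ terminal oligopyrimidine (TOP) motif, through which mTORC1 and the RNA-binding protein Larp1 control their translation when nutrients or energy are short. T cells make many ribosomes when they are activated and divide, and few when they rest. Ribosomal protein mRNAs have also left very many processed pseudogenes in the mouse genome, some of which are nearly identical to the parent gene over the whole coding sequence.

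The labelled cell type was checked first. FPKM totals were between 291803 and 313257 per sample, and the depth in reads is unknown because the tables hold no counts. Cd8a was lower in MWA+PBS (226 to 239 FPKM) than in MWA+2DG (359 to 377 FPKM). Of 17 T lineage genes, 14 were called higher in MWA+2DG and 0 lower, and their summed level was between 1519 and 1586 FPKM against between 2080 and 2217. The 14 neutrophil markers summed to between 338 and 366 FPKM in the first group and to between 1640 and 1821 in the second, with 11 called higher, while Elane and Mpo were called lower. The 10 B cell markers summed to between 10.6 and 11.9 FPKM against between 58.4 and 63.6. Of the 11 monocyte and macrophage markers 9 were called lower, and their sum went from between 747 and 811 FPKM to between 309 and 342. Lyz2 was called higher, at a log2 fold change of 0.41, and Ccr2 was not called. The 8 erythroid markers, all called lower, went from between 292 and 347 FPKM to between 66.9 and 84.7. Of the markers tested of other cells, 3 of 4 for platelets, 2 of 3 for dendritic cells and 2 of 5 for CD4+ T cells were called lower and 0 higher, while 2 of 3 for NK cells and 2 of 5 for plasma cells were called lower and 1 of each higher. For comparison, 22.3% of all genes tested were called higher and 17.1% lower. No gene of these lists was at 0 in every sample. The part of these other cells in the ribosomal protein values was not tested, and in bulk samples fewer cells of a type and less RNA per cell cannot be told apart. No batch is named in the labels, and any batch that ran along with treatment and the treatment itself cannot be told apart.

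Ribosomal protein genes were among the most abundant transcripts of the cells, and 23 of the 78 were within the 100 genes of highest mean FPKM. The mean level over the 6 samples ran from 1.54 to 1042 FPKM with a median of 167, and 11 genes were over 500 FPKM while 4 were under 10. Rpl4 (ENSMUSG00000032399), a large subunit protein, was the highest at 1069, 1072 and 991 FPKM in MWA+PBS and 1113, 973 and 1034 in MWA+2DG. Rps15 (ENSMUSG00000063457), a protein of the small subunit head, followed at 925, 914 and 765 FPKM against 1051, 918 and 812. Rpl4 was above Rps15 in each of the 6 samples, although the ranges of these genes over the samples overlapped. Rpsa, the protein also known as the laminin receptor, was between 752 and 845 FPKM in all 6 samples, and Rps6, the substrate of the S6 kinases, between 671 and 843. Rplp1, Rpl19, Rps4x, Rpl8 and Rpl23a were also among the 10 highest, with means between 564 and 728 FPKM. The genes Rps3a1, Rack1 and Fau belong to the ribosome but carry other symbols. By its mean Rps3a1 was above every gene of the rule, at 1078, 1207 and 961 FPKM in MWA+PBS and 1298, 1138 and 1241 in MWA+2DG. Rack1, a scaffold protein of the small subunit, had a mean of 204 FPKM. Fau, which encodes a ribosomal protein fused to a ubiquitin-like protein, had a mean of 187 FPKM.

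**Figure D1:**
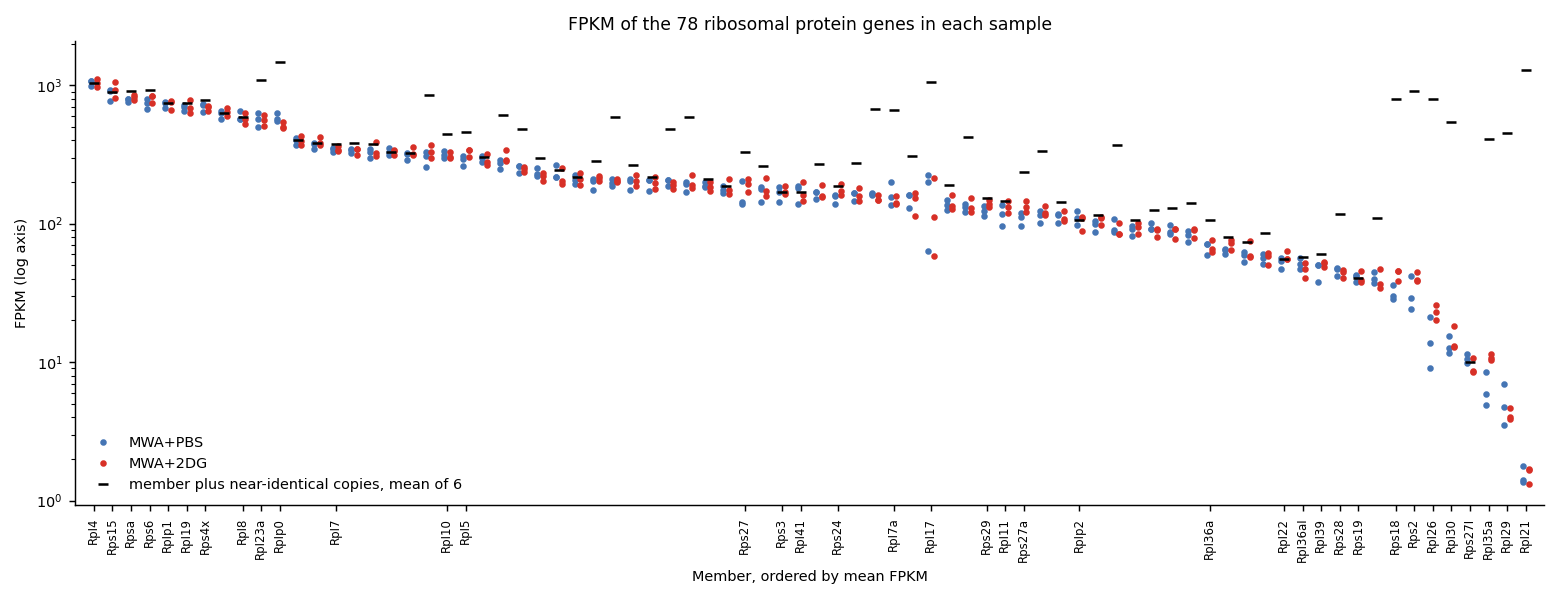
FPKM of the 78 genes (log axis), ordered by mean level from Rpl4 to Rpl21, with names for genes described in the text. Blue points are the 3 MWA+PBS samples and red points the 3 MWA+2DG samples; a black dash is the mean of the gene summed with its near-identical copies. In most genes the colors lie on top of each other, and at the low end of the order many dashes lie far above the points.

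The level listed for a gene depended on how many near-identical copies the annotation held beside it. A copy was counted where the longest coding sequence of the gene matched another gene's transcript at an identity of at least 95% over at least 80% of its length and the match covered at least 50% of that transcript. By this measure 70 of the 78 genes had at least 1 copy in the tables and 8 had none, and 481 of the 506 copies were annotated as processed pseudogenes. Of the copies, 259 had a mean of at least 1 FPKM and 24 of these were identical to the parent over the aligned coding sequence. In 23 genes the named gene held over 90% of the FPKM of its family (itself and its copies), in 22 it held under 50%, and in 7 it held under 10%. The copies together held 4.36% of the FPKM total in MWA+PBS and 4.81% in MWA+2DG. After the copies were added, the range from the lowest to the highest gene shrank from 677-fold to 148-fold, the range from the 10th to the 90th percentile from 15.3-fold to 9.02-fold, and the SD of the log2 level from 1.73 to 1.33.

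The 7 genes under 10% were Rpl21, Rpl29, Rpl35a, Rpl26, Rpl30, Rps2 and Rps18. Rpl21 had 53 copies and held 0.119% of its family, of which Gm10163, Gm13370 and Gm10240 alone carried 332, 330.4 and 326 FPKM. Rpl26, a protein at the rim of the exit tunnel, was at 18.9 FPKM while its copy Gm15772 was at 769. Rps18 was at 37.3 FPKM beside Gm10260 at 477, Rps18-ps3 at 206 and Gm11361 at 80.5. Rpl35a was at 8.64 FPKM beside 7 copies of at least 1 FPKM, the highest of them Gm10243 at 103. The sources used here do not say how reads of such families were shared out between parent and copy, and the values of these parents are uncertain. At the other end, Rps19, Rps3, Rpl8, Rpl41, Rplp2 and Rps27l were among the genes with no copy by this measure.

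The sequences below show how little separates 3 of these parents from their copies, since the same 3 genes had the largest log2 fold changes of the 78. They were read from GENCODE M21 transcripts (GRCm38), run 5′ to 3′ on the transcript, and have in capitals the base that differs. Positions count from 1 at the A of the start codon. Rpl35a (coding bases 142 to 170, chr16:33057520-33058684, plus strand, across an intron) was compared with Gm10243 (chr6:48523659-48523687, plus strand), a processed pseudogene:
Rpl35a: gcttatgtgtataaGgcaaaaaacaatac
Gm10243: gcttatgtgtataaAgcaaaaaacaatac
Rps18 (coding bases 172 to 200, chr17:33952494-33952522, minus strand) was compared with Gm10260 (chr13:97760389-97760417, minus strand), which is annotated as protein-coding:
Rps18: gaactcacggaggaTgaggtggagcgagt
Gm10260: gaactcacggaggaCgaggtggagcgagt
Rpl26 (coding bases 163 to 191, chr11:68902437-68903201, plus strand, across an intron) was compared with Gm15772 (chr5:3236593-3236621, plus strand), a processed pseudogene:
Rpl26: gttcaggttgttcgCggacactacaaagg
Gm15772: gttcaggttgttcgTggacactacaaagg

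Over the 330 coding bases of Rpl35a, G156A was the only difference from Gm10243, and the copies Rpl35a-ps2, Rpl35a-ps3, Rpl35a-ps4 and Rpl35a-ps6 each differed by that same single base. Those 5 copies carried 103, 50.7, 89.8, 45.0 and 88.0 FPKM. Gm10260 differed from the 456 coding bases of Rps18 at 4 positions (T186C, A337C, G371A and G431A), and A337C was shared by Rps18-ps3 and Gm11361, which differed from Rps18 at 3 positions each. Gm15772 differed from the 435 coding bases of Rpl26 at 2 positions, C177T and T288C.

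**Figure D2:**
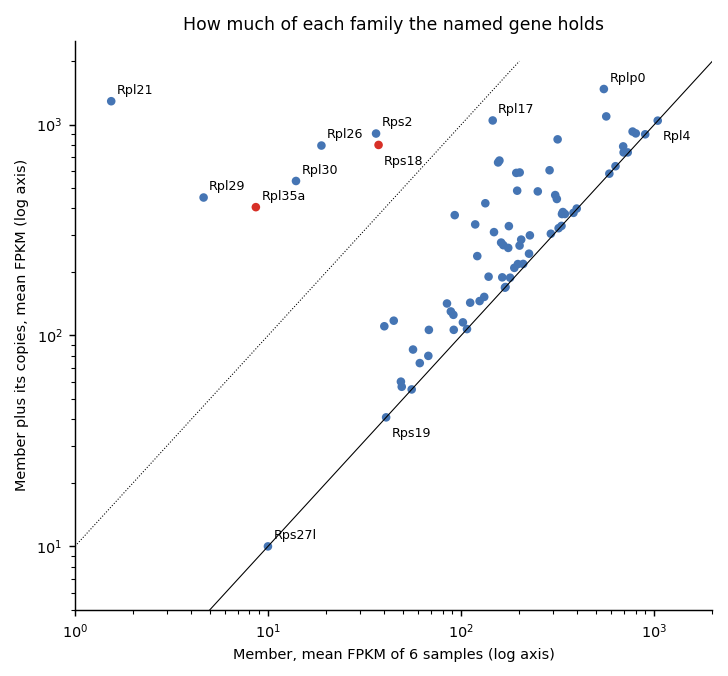
Mean FPKM of each of the 78 genes (horizontal, log axis) against the mean FPKM of the gene and its near-identical copies (vertical, log axis), over 6 samples. Genes on the solid line held all of their family; the 7 genes above the dotted line held under 10%, and the 2 red points are Rpl35a and Rps18, the genes called higher in MWA+2DG.

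The share of all transcripts held by the ribosomal protein genes overlapped between the groups. Together they held 6.14%, 5.97% and 5.62% of the FPKM total in MWA+PBS and 6.56%, 6.04% and 6.09% in MWA+2DG. The groups overlapped, with MWA+PBS replicate 3 the lowest and MWA+2DG replicate 4 the highest. The means were 5.91% ± 0.269 (SD, n = 3) and 6.23% ± 0.284 (two-sided exact permutation test, p = 0.3, smallest possible p = 0.1). With the copies added the shares were 10.3% ± 0.494 and 11.04% ± 0.557 (n = 3, exact permutation p = 0.2). The small subunit held 2.57%, 2.52% and 2.31% against 2.80%, 2.605% and 2.59%, with every MWA+2DG sample above every MWA+PBS sample. Its means were 2.47% ± 0.137 and 2.67% ± 0.119 (n = 3, exact permutation p = 0.1, the smallest possible). The large subunit held 3.45% ± 0.135 and 3.56% ± 0.167 (n = 3, exact permutation p = 0.5). Mitochondrially encoded transcripts, which count in the same total, held 22.3% ± 0.778 and 20.2% ± 0.678 (n = 3, exact permutation p = 0.1). Of the nuclear total alone, the ribosomal protein genes held 7.61% ± 0.301 and 7.80% ± 0.369 (n = 3, exact permutation p = 0.6). On that total the small subunit held 3.27%, 3.27% and 2.99% against 3.52%, 3.29% and 3.22%, and its groups overlapped (n = 3, exact permutation p = 0.4).

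**Figure D3:**
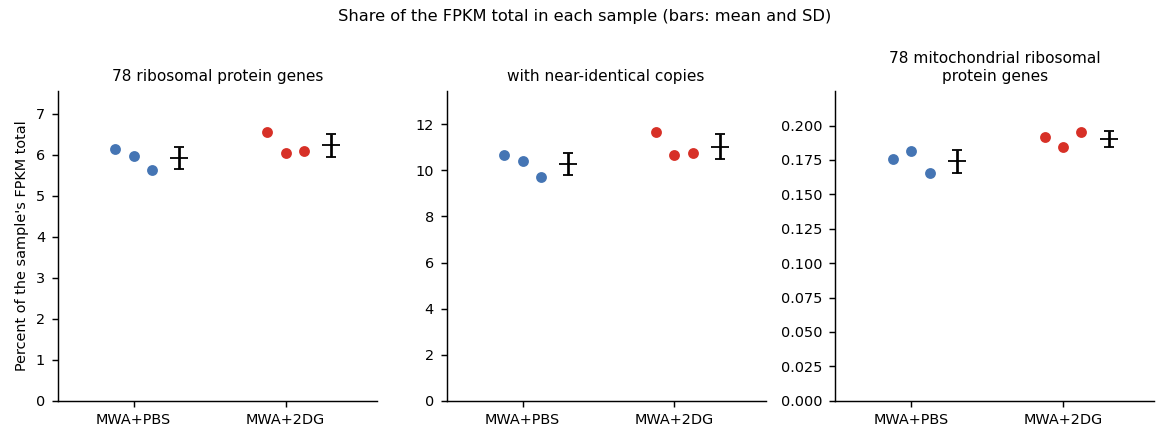
Percent of each sample's FPKM total held by the 78 cytosolic ribosomal protein genes, by the same genes with their near-identical copies, and by the 78 mitochondrial ribosomal protein genes. Points are samples and bars are mean and SD (n = 3). The groups overlap in the first panel (5.62% to 6.14% against 6.04% to 6.56%).

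Many of the genes were highest or lowest in the same samples. MWA+2DG replicate 4 was the highest of the 6 samples for 45 of the 78 genes, and MWA+PBS replicate 3 was the lowest for 43. The same counts over all genes tested were not made. The median ratio of a sample to the geometric mean over samples, taken over genes tested, was lowest in MWA+PBS replicate 3 (0.964). It was 1.02 in MWA+2DG replicate 4 and highest in MWA+2DG replicate 6 (1.03). How far the counts follow such a shift of the whole table was not tested. The median ribosomal protein gene was at 7.41, 7.47 and 7.22 on the log2(FPKM + 1) scale in MWA+PBS and at 7.57, 7.32 and 7.35 in MWA+2DG. Once each sample was centered on its median ribosomal protein gene, the spread within groups was smaller for 56 of the 78 genes. The median SD within groups on the log2 scale went from 0.129 to 0.0893 for the 78 genes and from 0.103 to 0.157 over all genes tested. The centering value came from the same 78 genes, which by itself can narrow their spread. Rpl17, a protein at the rim of the exit tunnel, was the exception in scale, at 63.5, 201 and 224 FPKM in MWA+PBS and 112, 58.3 and 215 in MWA+2DG. It held 13.9% of a family of 21 copies.

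Transcript levels of single ribosomal protein genes hardly separated the groups. In the limma fit over all 12444 genes with a mean of at least 1 FPKM, 2 of the 78 genes passed a Benjamini-Hochberg adjusted p under 0.05, where 39.4% of all genes tested did. Both were higher in MWA+2DG, a direction in which 22.3% of all genes were called. None was called lower, against 17.1% of all genes, and 1 was lower at an unadjusted P under 0.05. By the rule of the study (P under 0.05 and a log2 fold change beyond 0.25) 4 genes passed, against 38.2% of all genes: Rpl35a, Rpl26, Rps18 and Rps27a, all higher. The groups did not overlap in 5 genes, against 52.1% of all genes. The p-values measure the spread between these samples, which may be technical.

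Most of the differences that were not called were small, with Rpl26, Rps2, Rpl17, Rps27a and Rps27 beyond 0.25 on the log2 scale. The median log2 fold change (MWA+2DG minus MWA+PBS) was 0.02 over the 78 genes and 0.05 over all genes tested, and the quartiles were -0.03 and 0.12, against -0.16 and 0.24. The log2 fold change was within 0.25 of 0 for 71 of the 78 genes, or 91.0%, and for 57.6% of all genes. The 95% interval was inside ±0.5 for 69 of the 78 genes and inside ±0.25 for 26, against 59.8% and 16.0% of all genes. The median standard error was 0.092 over the 78 genes and 0.086 over all genes. Among the 1353 genes of at least 30 FPKM, 43.9% were called, and 1 of the 72 ribosomal protein genes in that range was. The ribosomal protein genes varied more than genes of that level, whose median standard error was 0.068. The median SD within groups was 0.13 for the 78 genes and 0.084 for those genes on the log2 scale. Among the 23 genes that held over 90% of their family, 0 were called by limma (smallest adjusted p = 0.175) and the log2 fold changes were between -0.18 and 0.14, with 12 above 0.

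**Figure D4:**
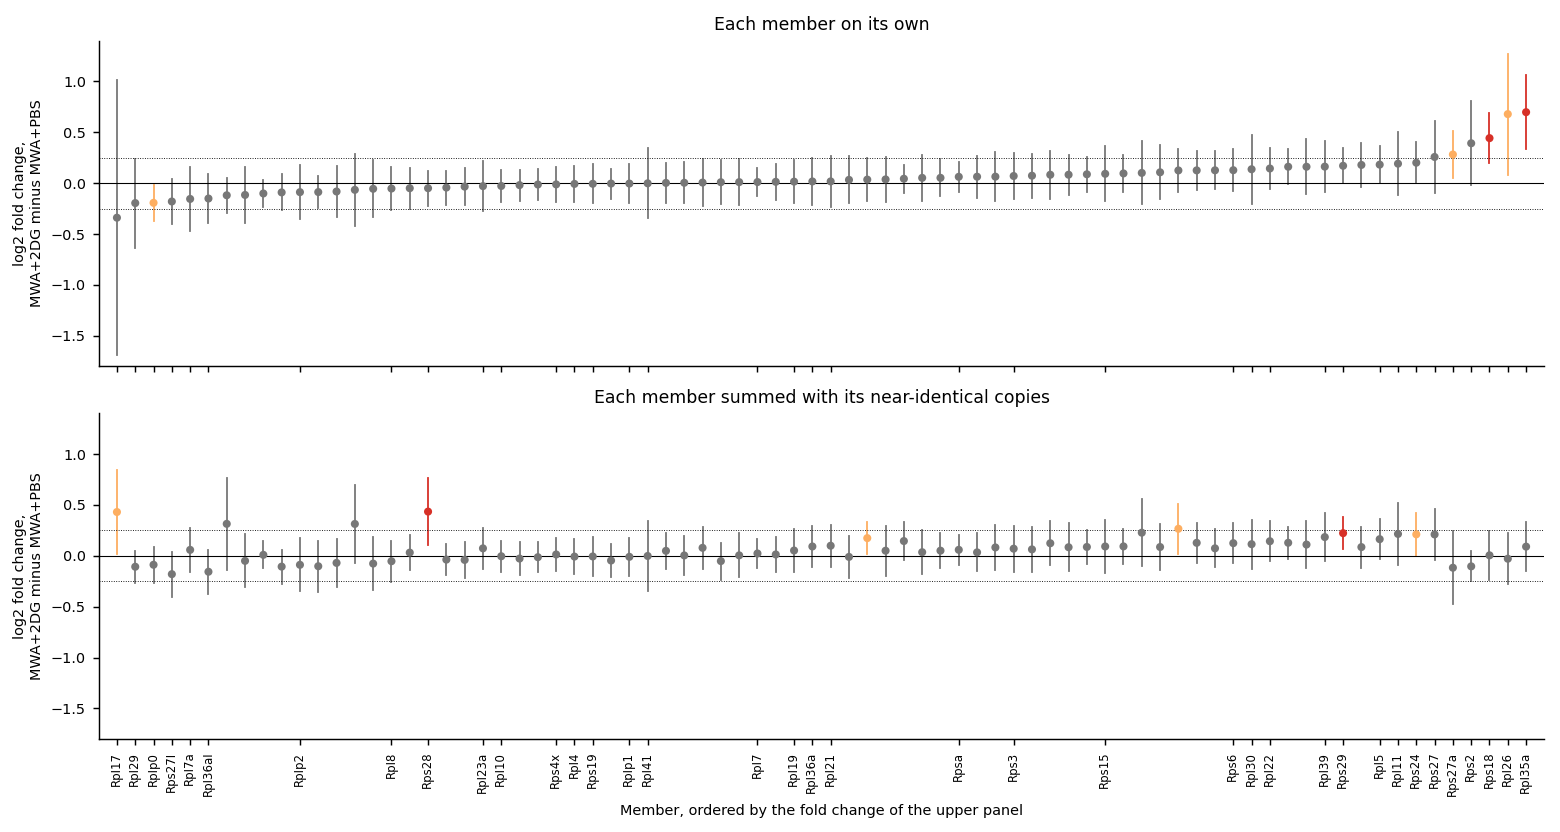
Log2 fold change (MWA+2DG minus MWA+PBS) with its 95% interval for each gene, alone (upper panel) and summed with its near-identical copies (lower panel), with names for genes described in the text. Red marks an adjusted p under 0.05 and orange an interval that leaves out 0; dotted lines are at ±0.25. Most points lie between the dotted lines, Rpl35a and Rps18 are red in the upper panel, and Rps28 and Rps29 in the lower.

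The 2 genes called were Rpl35a and Rps18. Rpl35a (ENSMUSG00000060636), a large subunit protein whose human gene is mutated in some families with Diamond-Blackfan anemia, was at 4.94, 8.46 and 5.90 FPKM in MWA+PBS and at 10.8, 11.4 and 10.3 in MWA+2DG. All 3 MWA+2DG samples were above all 3 MWA+PBS samples, and the log2 fold change was 0.70 ± 0.16 (SE; limma adjusted p = 0.0103). Summed with its copies, the family was at 400.4, 419.6 and 357 FPKM against 481, 373 and 404, and the groups overlapped (log2 fold change 0.09, limma adjusted p = 0.520). Rps18 (ENSMUSG00000008668), a protein of the small subunit head, was at 30.0, 36.1 and 28.5 FPKM in MWA+PBS and at 45.6, 38.4 and 45.2 in MWA+2DG. Here too no sample of a group lay within the other group, and the log2 fold change was 0.44 ± 0.10 (SE; limma adjusted p = 0.0126). The Rps18 family summed to 834, 819 and 739 FPKM against 906, 814 and 693, a difference of 0.01 on the log2 scale (limma adjusted p = 0.970). Rpl35a held 2.13% and Rps18 4.66% of its family, so both calls rest on a small part of the FPKM of the family.

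Rpl26, Rps2 and Rpl29 also held little of their families and were not called. Rpl26 (ENSMUSG00000060938) was at 13.8, 21.2 and 9.14 FPKM in MWA+PBS against 23.0, 20.0 and 26.0, with a difference of 0.68 on the log2 scale (95% interval 0.08 to 1.27, limma adjusted p = 0.0698). Its groups overlapped through MWA+PBS replicate 2. With Gm15772 and its other copies the fold change was -0.03. Rps2, a protein of the mRNA entry side of the small subunit, had a log2 fold change of 0.39 (-0.02 to 0.81, limma adjusted p = 0.118) alone and of -0.10 with its 18 copies. Rpl29 was at 4.76, 6.95 and 3.53 FPKM against 3.90, 4.0 and 4.64, a log2 fold change of -0.20 (-0.63 to 0.24). Its 23 copies included, the value was -0.11.

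Other genes at the edges of the order held between 13.9% (Rpl17) and all (Rps27l) of their families, with Rpl7a at 23.5%. Rps27a (ENSMUSG00000020460), which encodes ubiquitin fused to a ribosomal protein, was at 119.8, 112 and 96.0 FPKM in MWA+PBS and at 145, 132 and 122 in MWA+2DG. Its groups did not overlap and its log2 fold change was 0.28 (0.05 to 0.51, limma adjusted p = 0.0546), but with its copies the value was -0.12. Rps24, at 160.0, 157 and 138 FPKM against 192, 171 and 161, did not overlap either (log2 fold change 0.20, limma adjusted p = 0.106), and it held 86.5% of its family. Rps27 had a log2 fold change of 0.26 (-0.10 to 0.61). On the low side, Rpl17 was at -0.34 (-1.69 to 1.01), Rps27l at -0.18 (-0.40 to 0.04), Rpl7a at -0.15 (-0.47 to 0.16) and Rpl36al at -0.15 (-0.39 to 0.09). With copies added the sign changed for Rpl17, to 0.43 (0.02 to 0.85, limma adjusted p = 0.0905), and for Rpl7a, to 0.06.

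With the copies summed into their parents, 2 of the 78 families were called by limma, against 40.7% of all 12176 entries tested in that fit, and neither was Rpl35a or Rps18. The Rps29 family was at 129, 151 and 142 FPKM in MWA+PBS and at 163, 170.3 and 158 in MWA+2DG (log2 fold change 0.22, limma adjusted p = 0.0346). The Rps28 family was at 85.1, 99.3 and 114 FPKM against 143, 152 and 111, and overlapped through MWA+PBS replicate 3 and MWA+2DG replicate 6 (0.43, limma adjusted p = 0.0417). Rps28 itself, a small protein of the mRNA exit side, had a log2 fold change of -0.05, and the rest of the family total came chiefly from Gm10443, identical to it over the coding sequence, at 28.5, 37.4 and 54.9 FPKM against 73.1, 86.0 and 45.8. Of the 259 copies tested one by one, 20 were called higher and 5 lower, which is 9.65% of them against 39.4% of all genes in the same fit.

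The stalk of the large subunit, which recruits the elongation factors, is built from Rplp0, Rplp1 and Rplp2. Rplp0 (ENSMUSG00000067274), often used as a reference gene in qPCR, was at 633, 551 and 571 FPKM in MWA+PBS and at 545, 501 and 487 in MWA+2DG. It was the only gene of the 78 whose MWA+2DG samples all lay below the MWA+PBS samples, and its log2 fold change was -0.19 (-0.37 to -0.01, limma adjusted p = 0.0839). Rplp1 was between 663 and 769 FPKM over both groups, and Rplp2 had a log2 fold change of -0.09 (-0.35 to 0.17). Rplp0 held 37.2% of its family, and with its copies the groups overlapped and the log2 fold change was -0.09 (limma adjusted p = 0.386). It was called lower under median ratio scaling (-0.24), with arrayWeights (-0.26), under scaling to the T lineage genes (-0.59) and with copies summed and scaled to the median gene (-0.20), and was at 0.03 under quantile normalization.

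Rpl5 and Rpl11 join the 5S rRNA and, when ribosome assembly fails, bind Mdm2. Rpl5 was at 293, 307 and 262 FPKM in MWA+PBS and at 338, 302 and 338 in MWA+2DG (log2 fold change 0.18, 95% interval -0.002 to 0.37, limma adjusted p = 0.106). Rpl11 was at 117, 137 and 95.7 FPKM against 146, 119 and 132, and overlapped more widely (0.19, -0.12 to 0.50). Neither was called.

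Of the genes sorted by place on the ribosome, 0 of 8 at the rim of the exit tunnel, 0 of 6 at the mRNA exit side and 0 of 5 at the mRNA entry side were called by limma, where 39.4% of all genes were. Their median log2 fold changes were 0.04, 0.00450 and 0.04. Of 9 genes whose human counterparts are mutated in Diamond-Blackfan anemia, 1 was called, Rpl35a, which was not called with its copies added, and the median was 0.16. Rps19, the gene most often mutated in that disease, was at 43.0, 41.6 and 38.1 FPKM against 45.4, 39.3 and 37.6 and has no copy in the tables (log2 fold change -0.01, 95% interval -0.20 to 0.19). The 4 X-linked genes Rps4x, Rpl10, Rpl36a and Rpl39 had log2 fold changes between -0.03 and 0.16. By subunit, 1 of 31 small subunit genes and 1 of 47 large subunit genes were called, with medians of 0.06 and 0.01.

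Some ribosomal proteins have a paralog that can take their place. Rps27l, a paralog of Rps27 that p53 induces, was at 11.5, 9.93 and 10.5 FPKM in MWA+PBS and at 8.54, 8.66 and 10.7 in MWA+2DG. Rpl36al was at 56.9, 51.2 and 47.2 FPKM against 52.3, 47.0 and 40.6, beside its paralog Rpl36a at a mean of 68.0. Outside the naming rule, Rpl22l1, the paralog of Rpl22, was between 13.8 and 16.9 FPKM, and Rpl7l1, a relative of Rpl7, fell from between 17.7 and 19.4 FPKM to between 15.3 and 17.1 (log2 fold change -0.19, limma adjusted p = 0.0486). The retrogene Rpl9-ps6 was at 78.9, 90.8 and 64.5 FPKM against 106, 89.6 and 99.8 (0.34, limma adjusted p = 0.0621). Of the ribosomal genes with other symbols, Rps3a1 had a log2 fold change of 0.18, Fau of -0.16 and Rack1 of -0.05, and none of these was called by limma (smallest adjusted p = 0.183).

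Because FPKM is relative, the comparison was repeated on other scales. When each sample was scaled to its median ribosomal protein gene, 3 of the 78 genes were called, against 24.5% of all genes: Rpl35a (log2 fold change 0.65), Rps18 (0.40) and Rpl26 (0.63). The largest departures below the median gene were Rpl17 at -0.38, Rpl29 at -0.24, Rplp0 at -0.24 and Rps27l at -0.22, none of them called. On that scale Rps2 was the fourth of the upper departures at 0.35 (limma adjusted p = 0.0654). When each sample was scaled instead to the 17 T lineage genes, whose mean log2 fold change was 0.39, 66 of the 78 genes were called lower and 0 higher. That scale moved the whole table: 64.7% of all genes were called lower, and the median log2 fold change was -0.38 over the 78 genes and -0.35 over all genes. Under quantile normalization 9 of the 78 genes were called higher and 3 lower, against 39.5% of all genes called either way. With MWA+PBS replicate 2 left out, 6 were called higher, Rpl26, Rps2, Rps27 and Rps29 among them, against 41.7% of all genes called. With MWA+2DG replicate 6 left out 3 were called higher and Rps27l lower, against 30.0% of all genes called.

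Mitochondrial ribosomal proteins, which are encoded in the nucleus and translate the mitochondrial mRNAs, gave a comparison group that happened to have the same number of genes. Of 78 such genes tested, 11 were called higher and 2 lower, 16.7% in all against 39.4% of all genes, and the groups did not overlap in 27, against 52.1% of all genes. Their median log2 fold change was 0.08. Their share of the FPKM total was 0.174% ± 0.00825 in MWA+PBS against 0.191% ± 0.00582 (n = 3, exact permutation p = 0.1, the smallest possible). Mrpl58 had the largest increase, from a mean of 5.12 to 7.58 FPKM (log2 fold change 0.50, limma adjusted p = 0.0103), and Mrps6 the largest decrease, from 6.03 to 3.22 FPKM (-0.73, limma adjusted p = 0.00247). Whether the 2 kinds of ribosomal protein gene differed from each other was not tested.

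**Figure D5:**
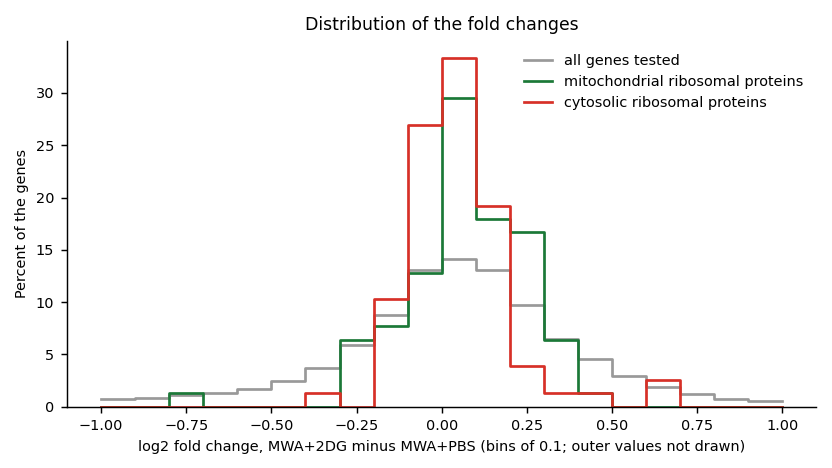
Percent of genes in each 0.1-wide bin of the log2 fold change (MWA+2DG minus MWA+PBS) for all 12444 genes tested (gray), 78 mitochondrial (green) and 78 cytosolic ribosomal protein genes (red). The red line is the narrowest, with 71 of 78 genes within 0.25 of 0, and the gray line the widest.

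Genes that share the TOP motif or act on it were examined next, and the counts that follow stand against the 39.4% of all genes called. Of 19 translation factors and related genes with TOP mRNAs, 1 was called lower and 0 higher: Eif3l, a subunit of the initiation factor eIF3, at -0.23 (limma adjusted p = 0.0107). Eef1a1, the elongation factor that delivers tRNA and the highest of the list, had a range of 4625 to 5049 FPKM in MWA+PBS against 4619 to 4683. Of 21 genes of the mTORC1 pathway tested, 2 were called higher and 3 lower. Sesn2, a sensor that restrains mTORC1, fell by 0.70 on the log2 scale, Eef2k, the kinase that inhibits elongation factor 2, by 0.67, and Eif4ebp1, the repressor of cap-dependent initiation, by 0.58. Rps6kb2, an S6 kinase, rose by 0.44 and Mlst8, a subunit of mTORC1, by 0.25. Pdcd4, an inhibitor of initiation and the highest of the list, was at -0.16 (limma adjusted p = 0.0526). Larp1, named here after its values were seen, was at 41.6, 36.2 and 44.9 FPKM against 34.8, 35.2 and 34.5 (log2 fold change -0.22, limma adjusted p = 0.0619). Of 27 genes of RNA polymerase I and ribosome assembly, 2 were called higher (Taf1b at 0.45 and Tsr1 at 0.36) and 2 lower (Bop1 at -0.29 and Wdr12 at -0.28). Of 10 genes of ribosome quality control tested, 1 was called lower, Pelo at -0.23, which rescues stalled ribosomes. The part of other cell types in the values of these lists was not tested.

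Promoter sequences from RefSeq (GRCm38.p6; 250 bases before to 50 after the annotated start) were matched for 58 of the 78 genes by symbol. A run of at least 5 pyrimidines, counted from a C within 10 bases of the annotated start, was found in 35 of the 58 genes, or 60.3%, against 44.9% of the mitochondrial ribosomal protein genes, 37.3% of the genes tested that had an entry and 34.4% of all genes with one. Its median length was 8 bases, against 6 in each of these other sets. The motif CCGGAAG, a form of the ETS factor site, was found on either strand in 41.4% of the 58 genes, 37.7% of the mitochondrial ribosomal protein genes, 22.6% of the genes tested and 9.93% of all genes with an entry. The motif AAGATGG, the core of the YY1 site, was found on either strand in 15.5%, 18.8%, 9.003% and 7.28% of these sets in the same order. A match is a description of letters in this window and the annotated starts can be off by some bases. The start windows of both called genes and of 2 abundant genes are given as examples, 15 bases on either side of the annotated start, with the pyrimidine run in capitals: Rpl35a (chr16:33056467-33056496, plus strand, the only 1 of 3 annotated starts with a run), Rps18 (chr17:33955651-33955680, minus strand), Rps6 (chr4:86857353-86857382, minus strand) and Rpl19 (chr11:98026909-98026938, plus strand, 1 of 2 annotated starts):
Rpl35a: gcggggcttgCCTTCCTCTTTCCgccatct
Rps18: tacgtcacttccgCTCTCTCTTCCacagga
Rps6: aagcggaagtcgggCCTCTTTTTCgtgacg
Rpl19: tgggctCTCCCCTTCgcagataatgggcgg
The run so counted was 13 bases in Rpl35a, 11 in Rps18, 10 in Rps6 and 9 in Rpl19, where 2 more pyrimidines lie upstream of the limit. Rps6 and Rpl19 carried such a run as Rpl35a and Rps18 did, and had log2 fold changes of 0.13 and 0.02. The 3 highest genes Rpl4, Rps15 and Rpsa had no such run at the annotated start, and in Rpl4 a pyrimidine tract lies upstream of the limit.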

How the data were processed

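RNA-seq of 6 samples of splenic CD8+ T cells was used. Per the labels, libraries were built from poly(A) RNA with a strand mark and molecular identifiers. The submitters' processing notes name cutadapt 1.9, HISAT2 2.0.4, UMI-tools, StringTie 1.3.4d and mm9, and the authors computed FPKM with StringTie and ballgown. The deposited FPKM values are scaled to transcript length and library total, hold no counts, and so give no depth. The sources used here do not say how reads that map to several genes were assigned. Symbols, biotypes and transcripts came from GENCODE M21 (GRCm38), and 28689 of 28773 IDs had a symbol. The members and lists were chosen with earlier results of these data known.

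Genes with a mean of at least 1 FPKM were fitted as log2(FPKM + 1) with limma 3.58.1 in R 4.3.3 (eBayes with trend, two-sided, no covariates), and p-values were adjusted over all 12444 genes. All fold changes are on this scale, where those of low genes come out too small. Shares were compared by exact permutation tests over samples. Copies were found with BLAST 2.17.0 (identity of at least 95%, cover of at least 80% of the coding sequence and 50% of the copy's transcript). Named genes were the 10 highest, the 6 largest and 6 smallest fold changes, the 4 largest departures each way from the median member, the listed structural groups, the genes beside the threshold, and up to 5 per pathway list. Alternatives were a pseudocount of 0.1, no filter, a mean of at least 5 FPKM, 5 other scalings (quantile, median ratio, without mitochondrial, immunoglobulin, hemoglobin and member genes, to T lineage genes and to the median member), removal of length and GC trends, eBayes without a trend, arrayWeights, leaving out each sample, and a stricter reading of the naming rule. A planned wider member set and some genes are not reported here. Copies summed into their parents, with and without scaling to the median member, were added after seeing the data.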

Additional observations from a re-analysis of the deposited data

How the results depend on the processing

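No paired analysis was possible because the MWA+PBS and MWA+2DG samples share no replicate number. The 2 calls, Rpl35a and Rps18, were higher in MWA+2DG and called in each setting except scaling to the T lineage genes (log2 fold changes 0.30 and 0.05) and the 2 settings with copies summed (0.09 and 0.01; scaled to the median gene -0.021 and -0.11). The causes of the changes given next were not tested, and shares of all genes in the same setting stand in brackets. Quantile normalization gave 12 calls (39.5% of all genes), 9 higher and 3 lower, and 17 genes without overlap (52.3%). It changed the sign of 18 genes, of which Rplp1 (0.17) and Rps4x (0.20) were called. Median ratio scaling (38.5%) called 1 gene lower, Rplp0 (-0.24). Rescaling without mitochondrial and other abundant genes gave 8 genes without overlap (51.9%), and shares of 8.42% and 8.54%. Scaling to T lineage genes gave 66 calls (69.0%), 0 higher and 66 lower, 61 genes by the rule of the study, 61 without overlap (72.9%) and a median of -0.38. It changed the sign of 45 genes and called 37 of these, among them Rps15 (-0.30), Rpsa (-0.33), Rps6 (-0.27), Rpl19 (-0.38), Rps29 (-0.22), Rpl37 (-0.23) and Rpl5 (-0.21). Scaling to the median gene gave 11 without overlap (35.5%). Removal of length and GC trends gave 4 calls (43.7%), all 4 higher, and 13 without overlap (55.1%). arrayWeights gave 9 calls (50.7%), 8 higher and 1 lower (Rplp0), and 7 by the rule of the study. Copies summed gave 3 without overlap (52.9%), changed the sign of 14 genes, of which Rps28 (0.43) was called, and gave shares of 10.3% and 11.04%. Copies summed and scaled to the median gene gave 6 calls (30.9%), 1 higher and 5 lower, and 23 without overlap (43.1%), and changed the sign of 36 genes, of which Rpl17 (0.32) and Rps2 (-0.21) were called.

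Leaving out each sample in turn gave between 2 and 6 calls (29.8% to 41.7%), between 2 and 6 higher and between 0 and 1 lower, between 2 and 7 genes by the rule of the study, between 8 and 16 without overlap (56.8% to 64.6%, since fewer samples overlap less), medians between -0.04 and 0.07, and shares from 5.80% to 6.06% (MWA+PBS) and from 6.07% to 6.32% (MWA+2DG). The values by the rule of the study were furthest from 4 without MWA+PBS replicate 2 (7) and without MWA+2DG replicate 4 (2). With 3 samples a group the exact tests cannot go below 0.1, and an unknown depth leaves the counting error of low genes such as Rpl35a unknown.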
